A study of Mus musculus with 4 samples.

Results

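The 35 genes described here belong to the amino acid response and to the response to unfolded protein in the endoplasmic reticulum (ER), in differentiating 3T3-L1 cells. They were taken as a given list out of 18194 genes named on the array. Members were chosen with earlier results of these data known, so their counts beside those of all genes are a description only. From textbook knowledge of their main inducer, 21 were placed in an ATF4-type group and 14 in a chaperone-type group. 3T3-L1 is a mouse preadipocyte line that turns into fat cells when insulin, dexamethasone and isobutylmethylxanthine are added to the medium, and the labels give these agents for every culture. A first culture received siRNA against aof2, now Kdm1a, which encodes the histone demethylase LSD1. A second received siRNA against rfk, which encodes riboflavin kinase. In the third, the induction medium contained tranylcypromine, a drug that inhibits LSD1 and also monoamine oxidases; an siRNA is not mentioned for this culture. The fourth received the control siRNA siGL3. Induction came 24 h after transfection and harvest 24 h after induction, in medium with 25 mM glucose and 10% serum. Each culture went onto 1 Affymetrix 3' expression array, so every value below is a single measurement, no test between conditions is possible and the number of arrays limits the precision.

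ATF4 is a transcription factor whose protein is made when kinases phosphorylate the initiation factor eIF2 during amino acid shortage, ER stress or other strains, and it is governed largely at translation. It switches on genes for amino acid synthesis and uptake, for tRNA charging and, under long stress, for cell death. A separate arm of the ER response works through ATF6, which is cut and moves to the nucleus, and through XBP1, whose mRNA is spliced by the sensor IRE1. These factors raise the chaperones, folding enzymes and degradation machinery of the ER. Cells turning into fat cells produce much secreted and membrane protein, which loads the ER.

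The arrays carried the labelled knockdowns. The 2 probe sets of Kdm1a stood at 17.3% and 19.5% of control with aof2 siRNA, and those of Rfk between 27.0% and 39.7% of control with rfk siRNA. Values are MAS5 signals, the linear brightness that the authors' software computed per probe set, and where a gene has several probe sets the brightest on average (mean log2 signal of the 4 arrays) was used. All 35 members passed a filter at the median mean signal of all probe sets (50.9), as did 10788 genes in all, and 31 of the 35 were among the 6873 bright genes above the 75th percentile (414). Fibroblast and preadipocyte markers had summed signals of 97481, 94650, 92299 and 91248 in the aof2 siRNA, rfk siRNA, tranylcypromine and control arrays. The brightest, Vim, Col1a2 and Col3a1, weigh most in these sums, and single markers differed: Col1a1 stood at 68.4%, 49.7% and 50.7% of control in the treated arrays, and Pdgfra at 137%, 119% and 115%. Adipocyte markers were scarce: 1 of the 4 named ones passed the filter, namely Fabp4, and Adipoq, which encodes adiponectin, lay below the filter. The summed adipocyte signals were 1341, 810, 1125 and 2508. Of 15 markers of leukocytes, endothelium and epithelium, 12 lay below the filter, and the summed signals of these lists were 295, 209, 299 and 263 for leukocytes, 98.6, 91.7, 117 and 66.0 for endothelium, and 352, 286, 304 and 268 for epithelium. Fabp4 and Col1a1 were thus lower in each treated array than in the control array, and their part in the differences below was not tested. In such bulk RNA, fewer cells of a type and less RNA per cell cannot be told apart.

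Motifs of both pathways were found in some of the members' promoters. RefSeq windows of 300 bases (250 before and 50 after the start of transcription, GRCm38.p6) were at hand for 30 of the 35 genes, 19 ATF4-type and 11 chaperone-type, and were searched on both strands. The ER stress element ERSE, CCAAT and CCACG with 9 bases of any kind between them, which ATF6 binds together with the factor NF-Y, was in 5 of the 11 chaperone-type windows, in 0 of the 19 ATF4-type windows and in 0.119% of 32851 windows. The shorter ERSE-II, ATTGG and CCACG with 1 base between them, was in 1 chaperone-type window, that of Herpud1, and in 0.0365% of all. Letters of the C/EBP-ATF response element (CARE) to which ATF4 binds, TGATGNAA, were in 6 of 19 ATF4-type windows, in 1 of 11 chaperone-type windows and in 3.97% of all. A match describes letters and shows no binding, and the 3 motifs did not overlap each other in these windows. The groups were made from textbook knowledge of the main inducer, so these shares are a description and no independent support for the grouping. The sequences below show the stretch around each match before the start for 10 genes whose values are described, 5′ to 3′ along the gene, with the match in capitals. Where the element lies on the opposite strand, the capitals show its reverse complement.
Hspa5 (chr2:34772005-34772063, plus strand): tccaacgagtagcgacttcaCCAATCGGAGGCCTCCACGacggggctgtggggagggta
Hsp90b1 (chr10:86705513-86705676, minus strand): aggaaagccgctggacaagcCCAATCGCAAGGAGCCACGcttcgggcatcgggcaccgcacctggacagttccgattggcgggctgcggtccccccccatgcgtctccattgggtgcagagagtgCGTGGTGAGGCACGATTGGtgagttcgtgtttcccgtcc
Dnajc3 (chr14:118937807-118937865, plus strand): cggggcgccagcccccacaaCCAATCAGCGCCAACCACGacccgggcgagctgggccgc
Calr (chr8:84847055-84847113, minus strand): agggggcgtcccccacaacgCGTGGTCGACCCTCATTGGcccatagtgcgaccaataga
Creld2 (chr15:88819500-88819558, plus strand): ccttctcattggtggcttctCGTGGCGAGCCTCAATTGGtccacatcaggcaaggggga
Herpud1 (chr8:94386297-94386407, plus strand): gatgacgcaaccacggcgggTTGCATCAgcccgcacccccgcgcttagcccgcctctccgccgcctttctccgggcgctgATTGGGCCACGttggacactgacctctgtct
Asns (chr6:7693210-7693252, minus strand): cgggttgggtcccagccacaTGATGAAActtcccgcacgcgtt
Atf3 (chr1:191183416-191183463, minus strand): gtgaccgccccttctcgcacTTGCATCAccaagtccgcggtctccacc
Chac1 (chr2:119351029-119351076, plus strand): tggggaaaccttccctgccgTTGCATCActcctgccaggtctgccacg
Nupr1 (chr7:126625553-126625600, minus strand): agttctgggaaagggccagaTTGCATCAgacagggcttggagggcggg
Hspa5 and Dnajc3 each hold 1 ERSE in the direction of the gene, Calr and Creld2 hold 1 on the opposite strand, and Hsp90b1 holds 2 that face each other. Herpud1 holds both a CARE and an ERSE-II, the CARE farther from the start. Matches to CARE were also found in Vldlr and, after the start of transcription, in Trib3.

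With tranylcypromine the groups lay on opposite sides of control, while with either siRNA both lay close to it. The median log2 difference of the ATF4-type members was 0.19 with tranylcypromine and that of the chaperone-type members -0.25, against -0.02 for all 10788 genes compared. With aof2 siRNA these medians were 0.00 (ATF4-type) and -0.03 (chaperone-type), and with rfk siRNA 0.00 and -0.05, against 0.00 and -0.01 for all genes compared. Of the 21 ATF4-type members 15 were above control with tranylcypromine and 6 below, whereas 4 of the 14 chaperone-type members were above and 10 below, beside a background of 48% above and 52% below. With either siRNA 10 ATF4-type members were above control and 11 below, and 6 chaperone-type members above and 8 below. The background was 49.3% above and 50.7% below with aof2 siRNA, and 48.5% and 51.5% with rfk siRNA. The 3 comparisons share the control array. Because members were chosen with earlier results of these data known, these shares beside the background describe the list and test nothing.

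The differences were small. At least 1.5-fold above control with tranylcypromine were 2 of 35 members (background 7.48% of genes compared) and at least 1.5-fold below it also 2 (background 4.77%). With rfk siRNA 0 members were higher (background 3.92%) and 1 was lower (background 3.8%). With aof2 siRNA 0 were higher (background 6.26%) and 0 lower (background 2.88%). Shares of this size lie near or below the background, and 0 members differed by 2-fold in any of the 3 comparisons. The 2-fold background was 2.23% higher and 0.945% lower with tranylcypromine, 1.61% and 0.538% with aof2 siRNA, and 0.927% and 0.806% with rfk siRNA. At a 1.2-fold threshold, chosen after the data were seen, 9 of 21 ATF4-type members were higher with tranylcypromine (42.9%, background 20.5%) and 3 lower (14.3%, background 20.1%). Of the 14 chaperone-type members 7 were at least 1.2-fold lower (50% against that 20.1%) and 2 higher (14.3% against 20.5%). Among bright genes the backgrounds for tranylcypromine at 1.2-fold were 15.2% higher and 16.4% lower. At 1.2-fold, 2 of all 35 members were higher and 6 lower with aof2 siRNA (backgrounds 19.5% and 15.7%) and likewise 2 and 6 with rfk siRNA (backgrounds 15.1% and 16.2%).

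**Figure D1:**
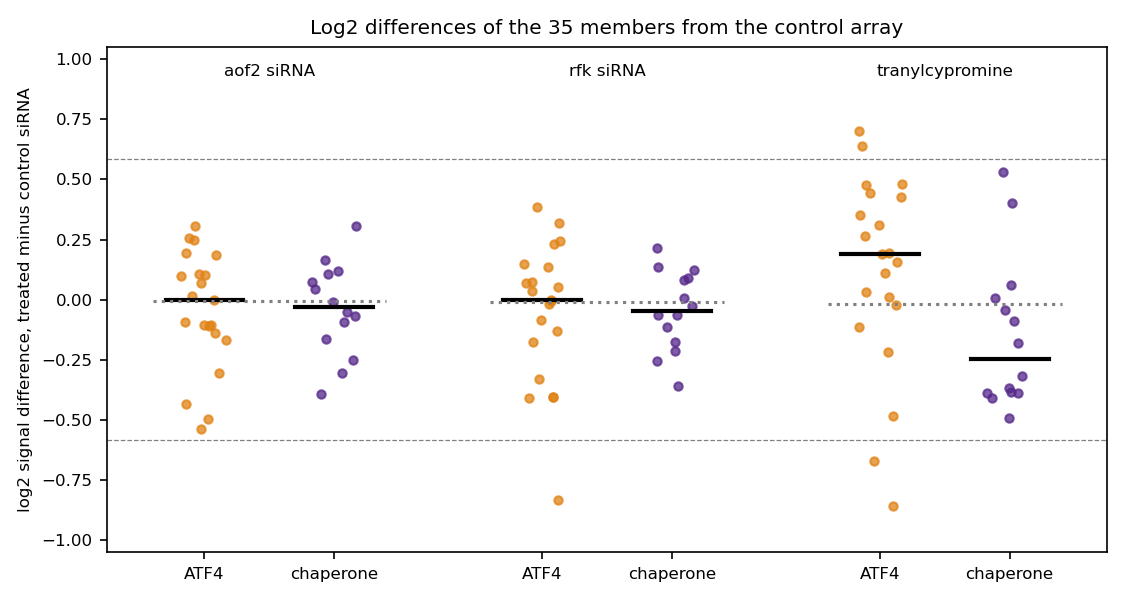
Log2 signal differences of the 35 members from the control array, 1 point per gene, for each of the 3 treated arrays (vertical axis, log2 units). Black bars are group medians, dotted lines the median of all 10788 genes compared and dashed lines 1.5-fold. With tranylcypromine the ATF4-type median is 0.19 and the chaperone-type median -0.25, while all siRNA medians lie within 0.05 of 0.

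Enzymes that make serine and pass its carbon to folate lay mostly above control with tranylcypromine. Phgdh, the first enzyme of serine synthesis, had signals of 5022 (aof2 siRNA), 5484 (rfk siRNA), 7260 (tranylcypromine) and 4666 (control). Psat1, the aminotransferase of the second step, had 9654, 10659, 12224 and 8999 in the same order, and Psph, the phosphatase of the last step, had 1418, 1499, 1677 and 1352. In all 3 genes the tranylcypromine array was the highest and the control array the lowest. The log2 differences with tranylcypromine were 0.64 for Phgdh, 0.44 for Psat1 and 0.31 for Psph. The 4 probe sets of Phgdh gave 0.48 to 0.64 and the 2 of Psat1 gave 0.23 and 0.44, all on the same side. All 4 of Phgdh and the lower one of Psat1 may be shared with other transcripts, so their agreement is not independent. Without shared probe sets Phgdh could not be compared.

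Mitochondrial folate enzymes followed in part. Shmt2, which splits serine into glycine and a folate-bound carbon, had signals of 1772 (aof2 siRNA), 2031 (rfk siRNA), 2094 (tranylcypromine) and 1556 (control). Aldh1l2, which oxidises formyl-folate, had 1091, 962, 1277 and 918. Mthfd2, the dehydrogenase between them, had 3524, 3736, 3991 and 3963. Shmt2 and Aldh1l2 were thus lowest in the control array, with tranylcypromine differences of 0.43 and 0.48 on the log2 scale, while Mthfd2 differed from control by 0.01. The 4 probe sets of Shmt2 ranged from 0.14 to 0.46 with tranylcypromine but from -0.57 to 0.41 with aof2 siRNA and from -1.29 to 0.38 with rfk siRNA, where the one used was the highest. Asns, asparagine synthetase and a widely used reporter of ATF4, had 7084, 7918, 7517 and 7636, and its difference with tranylcypromine was -0.02. Of these 7 enzymes, 6 were above control with tranylcypromine (background 48%) and 5 at least 1.2-fold so (background 20.5%).

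**Figure D2:**
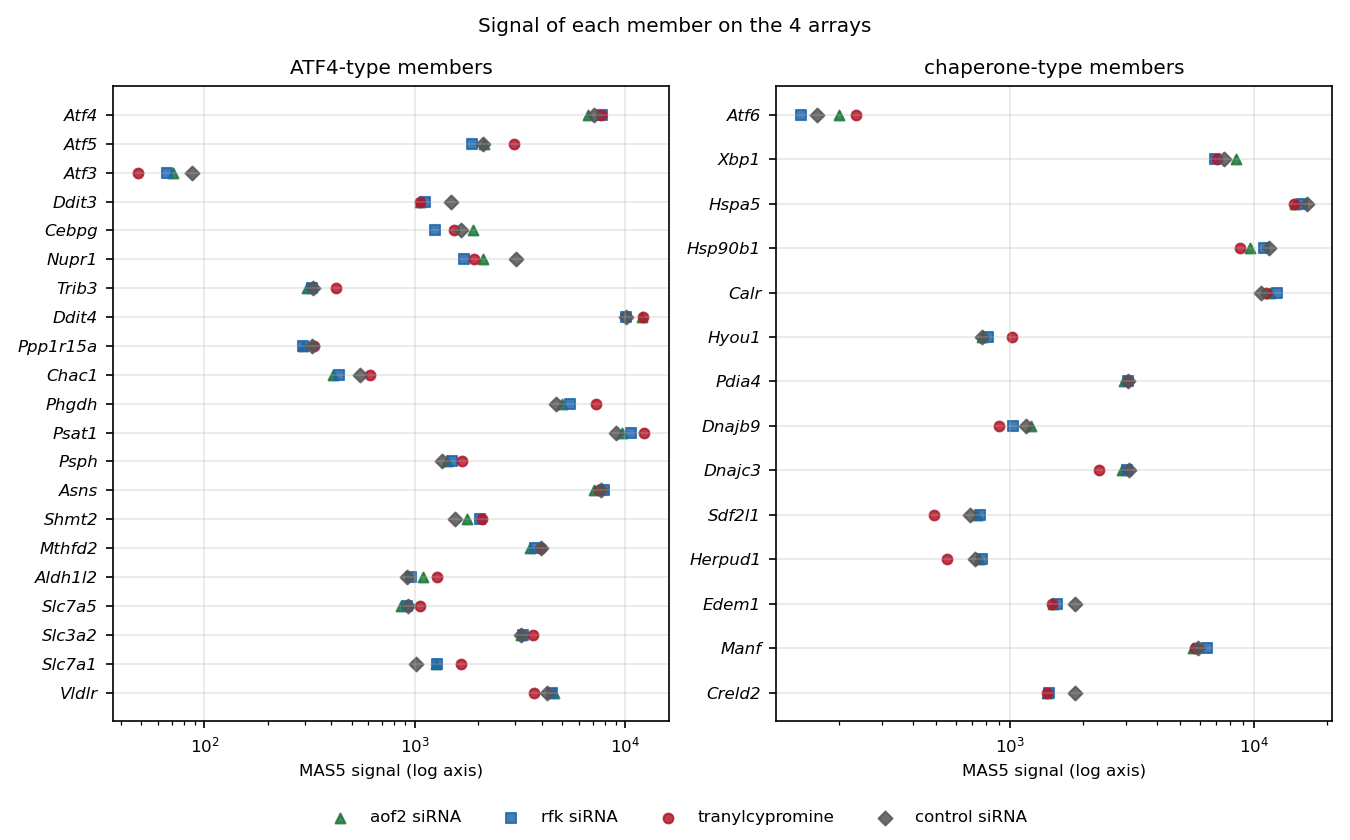
MAS5 signal (horizontal log axis) of each member on the aof2 siRNA, rfk siRNA, tranylcypromine and control siRNA arrays, 1 marker per array, ATF4-type members on the left and chaperone-type members on the right. The tranylcypromine marker lies rightmost for Phgdh (7260) and Slc7a1 (1653) and leftmost for Sdf2l1 (486) and Herpud1 (554), while Nupr1, Ddit3 and Creld2 have the control marker rightmost.

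The 3 amino acid transporters among the members lay above control with tranylcypromine (background 48%). Further transporters in the wider list of ATF4 targets lay on both sides, such as Slc6a9 at 0.42 and Slc1a4 at -0.43. The probe sets of Slc1a4 disagreed, from -0.43 to 0.27. Slc7a1, which carries arginine and lysine, had signals of 1255 (aof2 siRNA), 1267 (rfk siRNA), 1653 (tranylcypromine) and 1016 (control), so that all treated arrays lay above control. Its log2 differences were 0.31, 0.32 and 0.70, and a second probe set gave 0.40 with tranylcypromine. Slc7a5 and Slc3a2, the light and heavy chains of the transporter for leucine and other large amino acids, stood at 1054 and 3650 with tranylcypromine against 925 and 3187 in the control, or 0.19 and 0.20 on the log2 scale. With the siRNAs these chains lay between -0.10 and 0.04. Vldlr, the very low density lipoprotein receptor, which ATF4 raises under ER stress, had 4570, 4491, 3663 and 4263, and its 6 probe sets disagreed, from -0.39 to 0.59 with tranylcypromine.

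The regulators of the amino acid response lay on both sides of control with tranylcypromine, 6 of 10 above and 4 below. The background was 48% above and 52% below. The mRNA of Atf4 itself had signals of 6631 (aof2 siRNA), 7767 (rfk siRNA), 7638 (tranylcypromine) and 7077 (control), a 1.17-fold range, and with tranylcypromine its probe sets gave 0.11 (the one used) and -0.19. Atf5, a factor related to ATF4, had 2133, 1865, 2944 and 2109, with tranylcypromine standing above the 3 other arrays by at least 0.47 on the log2 scale. Cebpg, a partner of ATF4 on DNA, had 1889, 1242, 1526 and 1650, lowest with rfk siRNA at -0.41, where its 3 probe sets ranged from -0.48 to -0.06. Trib3, a pseudokinase that damps ATF4, had 306, 325, 421 and 330, but its probe sets gave 0.35 and -0.13 with tranylcypromine. Chac1, which breaks down glutathione, had 406, 436, 611 and 548, and was thus lower than control in the siRNA arrays (-0.43 and -0.33) and higher with tranylcypromine (0.16).

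Nupr1, Ddit3 and Atf3 were highest in the control array and are grouped here for that pattern, after their values were seen. Nupr1, a small nuclear stress protein, had signals of 2096 (aof2 siRNA), 1705 (rfk siRNA), 1911 (tranylcypromine) and 3039 (control), which is 69.0%, 56.1% and 62.9% of control. Its other probe set gave log2 differences of -0.55, -0.85 and -0.64, beside -0.54, -0.83 and -0.67 for the one used. Ddit3, which encodes the death-promoting factor CHOP, had 1052, 1118, 1061 and 1482, or 71.0%, 75.5% and 71.6% of control. With the probe sets used, the treated arrays lay close together in Nupr1 and Ddit3 and apart from the control array. The other probe set of Ddit3 gave -0.50, -0.13 and -0.58, so there rfk siRNA lay nearer to control. Atf3, an immediate stress factor, had 71.0, 66.3, 48.4 and 87.6, near the filter, with a difference of -0.86 with tranylcypromine from its only probe set. With tranylcypromine, adding 32 to every signal before the log left Nupr1 as the only member at least 1.5-fold lower. Since the control array enters every comparison, the lower values of Nupr1, Ddit3 and Atf3 in 3 arrays do not count as separate measurements of a difference: against the mean of the 3 other arrays Nupr1 stood at -0.04 with aof2 siRNA, -0.43 with rfk siRNA and -0.21 with tranylcypromine. Ddit4, an inhibitor of the growth kinase complex mTORC1, had 12043, 10069, 12099 and 10082, and Ppp1r15a, which returns eIF2 to its active form, had 293, 295, 330 and 323, both highest with tranylcypromine.

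With the probe sets used, the small partners of the ER chaperone BiP and the degradation genes lay below control with tranylcypromine. They were 5 in all, and the background below control was 52%. Sdf2l1, a partner that helps BiP release its clients, had signals of 735 (aof2 siRNA), 751 (rfk siRNA), 486 (tranylcypromine) and 683 (control). Dnajb9, a J-domain cochaperone of BiP, had 1223, 1028, 901 and 1163. Dnajc3, also a J-domain protein, had 2895, 3032, 2328 and 3089. In each of these 3 genes tranylcypromine was the lowest of the 4 arrays, with log2 differences from control of -0.49, -0.37 and -0.41. Sdf2l1 and Dnajb9 have a single probe set, and those of Dnajc3 disagreed, with 5 values from -0.41 to 0.56, so that the mean of all its probe sets gave 0.05.

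Herpud1, a membrane protein of ER-associated degradation, had signals of 745 (aof2 siRNA), 770 (rfk siRNA), 554 (tranylcypromine) and 723 (control), and its probe sets gave -0.38 and -0.15 with tranylcypromine. Edem1, which hands misfolded glycoproteins to degradation, had 1501, 1555, 1493 and 1857. The degradation genes differ in pattern: for Herpud1 tranylcypromine stood apart from the other arrays, and for Edem1 the control array did. The probe sets of Edem1 gave -0.32 and -0.35 with tranylcypromine, -0.31 and -0.12 with aof2 siRNA, and -0.26 and -0.49 with rfk siRNA.

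With the probe sets used, luminal chaperones and folding enzymes lay on both sides of control with tranylcypromine, 3 of 5 above and 2 below. The background was 48% above and 52% below. Hspa5, which encodes BiP, had signals of 14710 (aof2 siRNA), 15774 (rfk siRNA), 14572 (tranylcypromine) and 16496 (control). Hsp90b1, the ER member of the HSP90 family, had 9688, 11015, 8818 and 11523. Both were highest in the control array and lowest with tranylcypromine, by -0.18 and -0.39 on the log2 scale, and their probe sets ranged from -0.39 to -0.08 and from -0.39 to -0.33. Calr, the lectin chaperone calreticulin, stood at 0.12, 0.22 and 0.06, and Pdia4, a disulphide isomerase, at -0.05, 0.01 and 0.01. The 2 other probe sets of Calr gave -0.14 and -0.12 with tranylcypromine. Hyou1, the exchange factor of BiP, had 766, 815, 1018 and 771, but its tranylcypromine difference of 0.40 came from a probe set shared between transcripts, and its other one above the filter gave -0.22.

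The transcription factors of the chaperone arm, Xbp1 and Atf6, lay on opposite sides of control with tranylcypromine. Xbp1 had signals of 8440 (aof2 siRNA), 6967 (rfk siRNA), 7089 (tranylcypromine) and 7533 (control), and its 4 probe sets gave -0.38 to -0.05 with tranylcypromine. These probe sets were not assigned to the spliced or unspliced form. Atf6, a dim gene here, had 200, 139, 233 and 161, and its 3 probe sets gave 0.53, -0.02 and -0.06 with tranylcypromine. Of the secreted stress proteins, Creld2 had 1417, 1449, 1419 and 1857, at 76.3%, 78.0% and 76.4% of control, and Manf, a trophic factor, had 5640, 6433, 5744 and 5914. With the probe sets used, Creld2 thus shared with Nupr1 and Ddit3 a control value above 3 similar treated values.

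Of the 5 chaperone-type genes with an ERSE in the printed stretch, 4 were below control with tranylcypromine (background 52%). So were 5 of the 6 whose window held no ERSE, among them Herpud1, which holds the shorter ERSE-II. The medians were -0.39 for genes with an ERSE and -0.34 for those without it. With the probe sets used, Calr was the gene with an ERSE above control, and Sdf2l1, the lowest of the group, had no match in its window. The other probe sets of Calr lay below control.

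**Figure D3:**
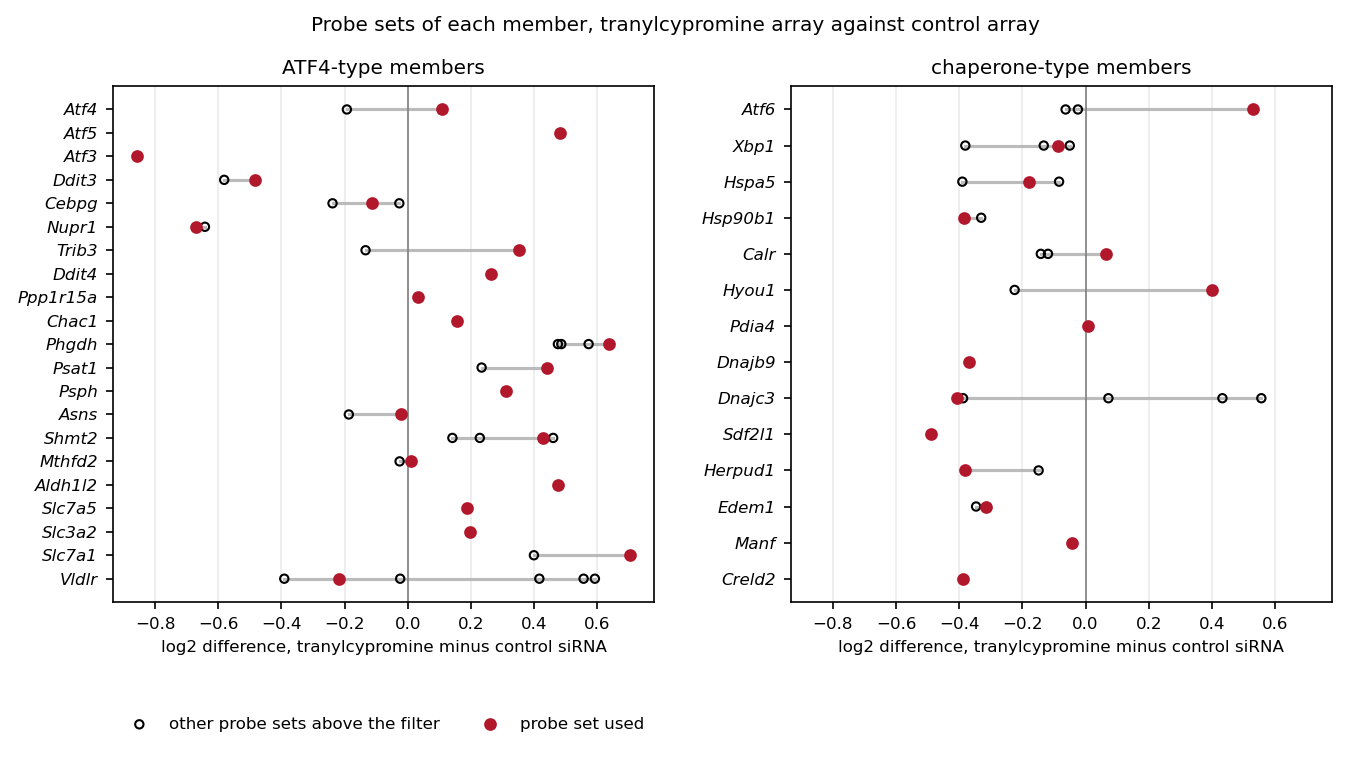
Log2 difference between the tranylcypromine and control arrays (horizontal axis) for every probe set of each member above the signal filter. Filled points are the probe sets used, open points the others, joined by a line. Of the 21 members with several probe sets, 13 had all of them on the same side of 0, and those of Dnajc3 ran from -0.41 to 0.56.

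The spread between probe sets of a gene shows how far different readings of the same RNA lie apart. It does not measure variation between cultures or between arrays, which is unknown here because no group has a replicate. The probe sets of a gene lay apart by a median of 0.34 on the log2 scale with tranylcypromine, 0.31 with aof2 siRNA and 0.29 with rfk siRNA over 5228 genes with several probe sets above the filter. For the 21 members with several they lay apart by 0.23, 0.19 and 0.17. Many single-gene differences given here are no larger than that. Whether larger differences exceed the variation between cultures cannot be told without replicates. With tranylcypromine the probe sets of Atf4, Trib3, Mthfd2, Vldlr, Atf6, Dnajc3, Hyou1 and Calr fell on both sides of control.

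Setting each array against all 3 others leans less on the control array, which is still among them. The tranylcypromine counts and comparisons given here all use the same tranylcypromine array, so they are not independent of each other. The tranylcypromine array was the highest of the 4 for 14 of 21 ATF4-type members (66.7%, background 27.7%) and the lowest for 2 of them (9.52%, background 28.1%). For the 14 chaperone-type members it was the lowest in 7 (50%, against that 28.1%) and the highest in 3 (21.4% against 27.7%). The aof2 siRNA array was the lowest of the 4 for 9 of 21 ATF4-type members (42.9%, background 22.1%), among them Atf4, Asns, Trib3, Chac1, Mthfd2 and Slc7a5. Set directly against aof2 siRNA, tranylcypromine gave medians of 0.20 for ATF4-type and -0.03 for chaperone-type members, against 0.00 over all genes compared. It stood above aof2 siRNA for 17 of 21 ATF4-type members (background 50%) and below it for 9 of 14 chaperone-type ones (background 50%). Against rfk siRNA the medians were 0.16 and -0.13, against 0.00, with 16 ATF4-type members above (background 50.7%) and 10 chaperone-type ones below (background 49.3%). The ATF4-type genes furthest above the aof2 siRNA array were Chac1 (0.59), Phgdh (0.53), Atf5 (0.47) and Trib3 (0.46), and the lowest chaperone-type ones were Sdf2l1 (-0.60), Dnajb9 (-0.44) and Herpud1 (-0.43). Because transfection is not mentioned for the tranylcypromine culture, drug and transfection cannot be told apart.

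Other genes of the pathways were looked at through lists chosen for their function. Among 17 further ATF4 targets above the filter, 4 were at least 1.2-fold higher with tranylcypromine and 4 lower (23.5% each way, backgrounds 20.5% and 20.1%), with a median of 0.14. Gpt2, a mitochondrial alanine aminotransferase, and Eif4ebp1, a repressor of translation, both stood at 0.49, whereas Sesn2, a stress sensor that p53 also controls, stood at -1.87 and Cth, which makes cysteine, at -0.67. Sesn2 had signals of 597 (aof2 siRNA), 659 (rfk siRNA), 162 (tranylcypromine) and 593 (control), and its other probe set gave -0.43. With aof2 siRNA 3 of the 17 were higher and 4 lower at 1.2-fold (backgrounds 19.5% and 15.7%), with Eif4ebp1 at 0.34, Slc1a5 at 0.32, the ER oxidase gene Ero1a at -0.84 and Mthfd1l at -0.46. With rfk siRNA 3 were higher and 1 lower (backgrounds 15.1% and 16.2%). Cth stood at 0.44, Gpt2 at 0.39, Ero1a at -0.37 and Slc1a4 at -0.26. The probe sets of some of these genes disagreed. Those of Eif4ebp1 ranged from -0.17 to 0.49 with tranylcypromine. Those of Slc1a5 ranged from -0.21 to 0.32 with aof2 siRNA, and those of Gpt2 from -0.39 to 0.50 with rfk siRNA.

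Among 27 further genes of ER folding and degradation, 5 were at least 1.2-fold lower with tranylcypromine (18.5%, background 20.1%) and 2 higher (7.41%, background 20.5%), with a median of -0.12. The share of lower genes was thus near the background. The lowest were the oxidase gene Ero1b (-0.40) and Hspa13 (-0.39), and the highest were the dim Derl3 (0.50) and the ubiquitin ligase gene Syvn1 (0.29). With aof2 siRNA 5 were lower and 2 higher (backgrounds 15.7% and 19.5%), including Pdia6 at -0.34, Dnajb11 at -0.32, Derl3 at 0.41 and Syvn1 at 0.29. With rfk siRNA 4 were lower and 1 higher (backgrounds 16.2% and 15.1%). The lowest were Derl3 at -0.56 and Uggt1 at -0.42. The highest were Txndc5 at 0.36 and Syvn1 at 0.26, the latter just short of 1.2-fold.

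Of 15 sensors and translation initiation factors upstream, 13 were below control with aof2 siRNA (median -0.17, background 50.7% below). With rfk siRNA 9 were below (median -0.06, background 51.5%) and with tranylcypromine 8 (median -0.14, background 52%), both shares near the background. Eif2ak4, which encodes the amino acid sensor GCN2, had signals of 390 (aof2 siRNA), 507 (rfk siRNA), 370 (tranylcypromine) and 457 (control), and Eif2ak3, which encodes the ER sensor PERK, had 1130, 980, 1385 and 1153. With tranylcypromine Eif2ak4 stood at -0.30 and Eif2ak3 at 0.26, and the other extremes were Eif2b5 at 0.28 and the protease gene Mbtps1, which cuts ATF6, at -0.37, whose 3 probe sets ranged up to 1.02. With aof2 siRNA Ern1, which encodes IRE1, stood highest at 0.46, followed by Eif2b5 at 0.09, and Eif2b4 (-0.36) and Gcn1 (-0.31) stood lowest. With rfk siRNA the highest were Mbtps2 at 0.34 and Ern1 at 0.16 and the lowest Eif2b2 at -0.46 and Eif2b4 at -0.31.

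**Figure D4:**
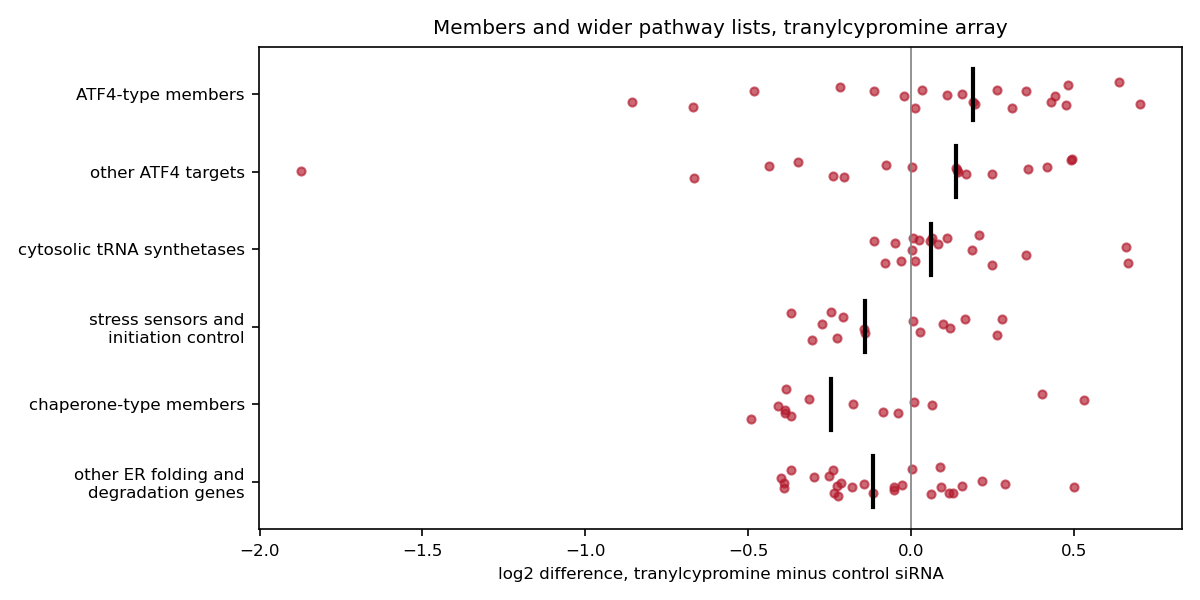
Log2 difference between the tranylcypromine and control arrays (horizontal axis) for the members and the wider lists, 1 point per gene above the filter, with black bars at the medians. Medians run from 0.19 for ATF4-type members and 0.14 for other ATF4 targets to -0.12 for other ER genes and -0.25 for chaperone-type members, and Sesn2 at -1.87 lies apart.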

How the data were processed

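Total RNA of 4 cultures was labelled and put on 1 array each. The deposited intensity values are MAS5 signals made by the authors, per the submitters' processing notes; its version and settings are not stated in the sources used here. The mean of the signals, trimmed of 2% at each end, was 500.003 on all 4 arrays, so a difference in RNA content between cultures would not show.

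Differences are on the log2 scale, without an added offset. Platform annotation gave 1 symbol to 34958 of 45101 probe sets, and 34754 of their gene identifiers were in the RefSeq table of GRCm38.p6. Genes above the median mean signal were compared by log2 differences, called at 1.5-fold, with 2-fold and 1.2-fold as alternatives. With 1 array per group, no p-value or SD is given. The text names all 35 members, the targeted genes and, per wider list and comparison, the 2 highest and 2 lowest genes above the filter. Further genes, such as Eif2ak3, are named for their role or after their values were seen. Members and lists were chosen with earlier results of these data known. Of 91 genes in the 5 wider lists, 7 were not named on the array. Values of wider-list genes come from 1 probe set each unless others are given. Other probe sets of such a gene can fall on the other side of control. The steps were tested on simulated data. Alternatives were other scalings, an offset of 32, other filters, other probe set rules and another reference. Python 3.11.15, NumPy 2.4.6, pandas 2.3.3 and matplotlib 3.10.9 were used.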

Additional observations from a re-analysis of the deposited data

How the results depend on the processing

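No paired analysis was possible because each group has 1 array. Over the 7 alternatives in scaling, offset, filter and probe sets, with tranylcypromine the ATF4-type median lay between 0.13 and 0.20, the chaperone-type median between -0.32 and -0.19 and their difference between -0.51 and -0.35; the tranylcypromine array was highest for 11 to 14 ATF4-type members and lowest for 6 to 8 chaperone-type ones. Centring on array medians moved the median of all genes to -0.08 with aof2 siRNA and with tranylcypromine. With the mean of the 3 other arrays in place of control, the tranylcypromine chaperone-type median was -0.12 and the difference between groups -0.30, the rfk siRNA values were 0.037 and 0.069, and the aof2 siRNA ATF4-type median was -0.085. That median was -0.079 with centring and -0.10 without shared probe sets. The cause of these shifts was not tested.

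Counts of members are small, and some of them moved with the processing. At 1.2-fold, added after the data were seen, 2 members were higher and 6 lower with aof2 siRNA, 2 and 6 with rfk siRNA, and 11 and 10 with tranylcypromine; at 2-fold, 0 were called. With 1.5-fold calls, 1 member was higher with tranylcypromine under centring, the mean of all probe sets or no shared probe sets, and 0 with the other arrays' mean as reference. The lower count with tranylcypromine was 1 with the offset, the stricter filter or that mean. With rfk siRNA it was 0 against that mean and 2 with the mean of all probe sets or without shared ones. With aof2 siRNA 1 member was higher with the mean of all probe sets, and 1 was lower with that mean or with centring. In the 1.2-fold counts by group, with aof2 siRNA 0 ATF4-type members were higher under centring and 2 with the mean of all probe sets, and 1 was lower against the other arrays; 0 chaperone-type ones were higher under centring, the offset, the stricter filter or the other arrays as reference, and 0 lower against the latter. With rfk siRNA 0 ATF4-type members were higher with the mean of all probe sets or against the other arrays, and 3 lower against those; 1 chaperone-type member was higher against them and 3 lower with the mean of all probe sets. With tranylcypromine 1 chaperone-type member was higher with the mean of all probe sets, the stricter filter or no shared probe sets, and 1 ATF4-type member was lowest of the 4 arrays under the stricter filter. Over the 7 alternatives 7 to 9 ATF4-type members were at least 1.2-fold higher with tranylcypromine and 6 to 7 chaperone-type ones lower. Against the other arrays these counts were 7 and 5. Of 627 single-gene values under 6 settings, 601 moved by less than the spread between probe sets and 26 moved by more. Changes of sign were counted only for the few values that passed 1.5-fold, and 0 of those changed. Smaller values, such as that of Dnajc3 with tranylcypromine, could change sign without being counted.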

Other observations

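Cytosolic tRNA synthetases, many of which ATF4 raises so that amino acids can be loaded onto tRNA, lay mostly above control with tranylcypromine and below it with the siRNAs. Of 18 genes above the filter, 14 were above control with tranylcypromine (median 0.06, background 48%), 5 with aof2 siRNA (-0.09, background 49.3%) and 5 with rfk siRNA (-0.09, background 48.5%). Most of these differences were small. At 1.2-fold, 3 of the 18 were higher with tranylcypromine (16.7%, background 20.5%) and 0 lower (background 20.1%), so the share of higher genes did not exceed the background. Cars (0.67) and Yars (0.66), which load cysteine and tyrosine, were highest with tranylcypromine and at least 1.5-fold above control, and Mars1 (-0.11) and Tars (-0.08) were lowest. Cars had signals of 789 (aof2 siRNA), 862 (rfk siRNA), 1170 (tranylcypromine) and 737 (control), and Yars 791, 655, 975 and 617. With aof2 siRNA Yars (0.36) and Vars (0.30) stood highest and Aars (-0.35) and Wars (-0.33) lowest, and with rfk siRNA Vars (0.53) and Cars (0.23) stood highest and Aars (-0.22) and Farsa (-0.19) lowest. Set directly against aof2 siRNA, 17 of the 18 were above it with tranylcypromine (median 0.17, background 50%), and against rfk siRNA 15 (0.18, background 50.7%).

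Of the cytosolic folate enzymes, 4 were above the filter, with medians of -0.18 for aof2 siRNA, -0.01 for rfk siRNA and 0.04 for tranylcypromine. Shmt1, the cytosolic counterpart of Shmt2, had signals of 324 (aof2 siRNA), 426 (rfk siRNA), 453 (tranylcypromine) and 467 (control), a difference of -0.53 with aof2 siRNA, and Mtr stood at -0.25 with aof2 siRNA, 0.09 with rfk siRNA and -0.25 with tranylcypromine. Tyms, which makes thymidylate, stood at -0.04, -0.11 and 0.30 in the same order, and Mthfd1 at -0.11, 0.14 and 0.12. With aof2 siRNA the probe sets of Shmt1 ranged from -1.08 to 0.16 and those of Mtr from -0.25 to 0.22. With tranylcypromine those of Mthfd1 ranged from -1.10 to 0.12. Fgf21, a secreted ATF4 target, had signals of 4.4, 16.8, 45.6 and 2.5 in the order of arrays given for Shmt1, all below the filter.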
